A study of Mus musculus with 10 samples.

Results

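The ETS genes described here were Ets1, Ets2, Fli1, Erg, Spi1, Elf1, Gabpa, Etv6 and Elk3, transcription factor genes that were taken by gene symbol from the RNA-seq of sorted mouse erythroid progenitors. The table of read counts held 24421 genes, and all 9 ETS genes were among them. All 9 also passed the filter on low counts, which left 11846 genes for testing. The rule itself used gene symbols and no measured value, but the members were chosen with earlier results of these data known.

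ETS factors share a winged helix-turn-helix domain that binds DNA around a GGAA core, and the bases beside the core and the partner proteins separate the members from each other. Ets1 and Ets2 are phosphorylated by the ERK kinases, whereas Elk3 and its relatives Elk1 and Elk4, the ternary complex factors, act with SRF on the immediate early genes that follow ERK signaling. In blood, Spi1 encodes PU.1, a factor of myeloid and B cells that opposes GATA1 in the erythroid lineage, while Fli1 and Erg act in stem cells and megakaryocytes.

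The cells were CD71+Ter119+ bone marrow cells (R2), sorted on CD71, the receptor for transferrin, and on Ter119, a surface antigen of the red cell lineage. Each library came from 1 recipient mouse. The 4 genotypes were Ddx41+/+ Trp53+/+ (replicates 10, 11 and 12), Ddx41+/- Trp53+/+ (32 and 34), Ddx41+/+ Trp53+/- (22, 23 and 24) and Ddx41+/- Trp53+/- (46 and 47). Ddx41 encodes a DEAD-box RNA helicase, Trp53 encodes p53, and the comparisons ask how loss of 1 Ddx41 allele, of 1 Trp53 allele or of both shifts the transcriptome of these progenitors. All groups shared the same handling, in which marrow with the Rosa-CreERT2 allele was given to lethally irradiated BoyJ recipients. Then 1 mg of tamoxifen was injected on 5 days in each of 2 rounds, and leg bone marrow was taken 8 weeks after the transplant. The Ddx41 allele was floxed, so its loss depended on a tamoxifen-inducible Cre that is driven by the ubiquitous Rosa26 locus, whereas the Trp53 allele was constitutive. The labels name no sort on a donor marker, so cells of the recipient may remain among the sorted cells, and the age and sex of the mice are not given in the sources used here.

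Libraries held 7866648 (replicate 34) to 20283930 (replicate 11) counts. The ETS genes had 19 (Erg) to 2289 (Elf1) counts per library, so Erg and Elk3 carried the most counting error. Ddx41 was at 21.9 to 26.6 CPM (counts scaled to a common library size) in the 6 Ddx41+/+ libraries and at 12.5 to 16.5 in the 4 Ddx41+/- libraries. Trp53 was at 57.4 to 68.1 CPM in the Trp53+/+ libraries and at 40.3 to 46.2 in the Trp53+/- libraries, so every library matched its label. The erythroid marker Tfrc was high in every library, at 2692 to 3458 CPM, although Hbb-bt, a beta globin gene, was at 0 counts throughout. Markers of neutrophils summed to 4940 to 8460 CPM, and markers of macrophages to 233 to 543 CPM.

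To compare the ETS genes with each other, counts were divided by the exon length of each gene and expressed as RPKM (CPM per kilobase of exon). In the 3 Ddx41+/+ Trp53+/+ mice, Elf1, an activator of erythroid and lymphoid genes, stood highest at 16.1 ± 1.32 RPKM (mean ± SD, n = 3). Spi1 followed at 14.5 ± 1.36 RPKM (n = 3) and Gabpa, the DNA-binding subunit of GABP, at 10.9 ± 0.127 RPKM (n = 3). The part of neutrophils and macrophages, whose markers were found in every library, in the Spi1 level was not tested. Elf1 (14.9 to 17.5 RPKM) and Spi1 (12.9 to 15.4 RPKM) overlapped between mice, whereas Gabpa (10.8 to 11.1 RPKM) lay below both.

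A second group of 4 genes lay between 1.95 and 3.31 RPKM in these mice. Its means were 2.82 ± 0.500 RPKM for Ets2, 2.74 ± 0.524 for Ets1, 2.63 ± 0.335 for the repressor gene Etv6 and 2.41 ± 0.400 for Fli1 (SD, n = 3), and neighbours in this order did not differ beyond their spread. Erg (1.27 ± 0.496 RPKM) and Elk3 (1.17 ± 0.0966 RPKM) were lowest, and Elk3 fell within the range of Erg. Of 17 other ETS genes in the table, Elf2, at 13.8 ± 1.07 RPKM, was near Spi1, and Etv4, Elf3, Elf5, Ehf and Fev had 0 counts in all 3 mice, which allows up to 0.146 to 0.208 CPM per library at a limit of 3 counts.

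**Figure D1:**
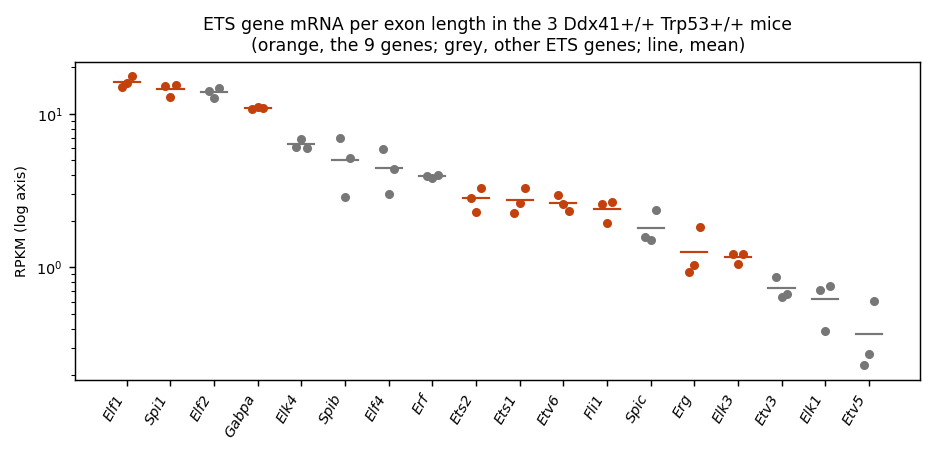
Level of each ETS gene in the 3 Ddx41+/+ Trp53+/+ mice, as RPKM on a log axis. Each point is 1 mouse and each line the mean, with the 9 ETS genes in orange and other ETS genes that averaged at least 0.1 RPKM in grey. Elf1, Spi1 and Gabpa lie above 10 RPKM, and the other 6 lie between 0.928 and 3.31 RPKM.

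Ets1 and Fli1, and likewise Ets2 and Erg, are neighbours in the genome. Ets1 (chromosome 9, 32636221 to 32757820, plus strand, GRCm38) and Fli1 (chromosome 9, 32422204 to 32542861, minus strand) lay 93.4 kb apart, and Ets2 (chromosome 16, 95702075 to 95721051, plus strand) and Erg (chromosome 16, 95359169 to 95586593, minus strand) lay 115.5 kb apart. In GENCODE M21 there were 0 protein-coding genes within either gap. Exons of Ets1, Ets2, Fli1, Erg and Spi1 shared no bases with annotated exons of another gene. Elf1 shared 4.85% of its exon bases with Wbp4, Gabpa 6.98% with Atp5j, Etv6 2.26% with Gm17089 and Elk3 6.95% with Cdk17, each on the opposite strand. Whether reads were counted by strand is not given in the sources used here, so these shared bases leave the smaller differences of those 4 genes uncertain.

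RefSeq start sites (GRCm38.p6) gave promoter windows for 6 of the 9 ETS genes, Ets2, Erg, Elf1, Gabpa, Etv6 and Elk3, and for 16 of 18 other ETS genes. The 250 bases before a start are shown for Erg (the most upstream of its 3 RefSeq starts), the member nearest to Ets2, and for Spib, a close relative of Spi1 whose level is followed below with that of Ets1. Capitals mark GGAA or its complement TTCC, the ETS core.
Erg (chr16:95586594-95586843, minus strand): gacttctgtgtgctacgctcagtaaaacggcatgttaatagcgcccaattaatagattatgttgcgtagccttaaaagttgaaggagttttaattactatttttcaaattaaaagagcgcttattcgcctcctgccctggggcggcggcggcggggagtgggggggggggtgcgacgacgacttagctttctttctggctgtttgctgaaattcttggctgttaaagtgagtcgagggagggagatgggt
Spib (chr7:44532072-44532321, minus strand): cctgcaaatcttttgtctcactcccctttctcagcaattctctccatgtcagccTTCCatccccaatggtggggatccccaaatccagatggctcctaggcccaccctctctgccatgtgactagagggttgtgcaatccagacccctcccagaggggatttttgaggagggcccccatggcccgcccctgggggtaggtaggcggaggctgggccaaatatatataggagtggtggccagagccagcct
The Spib window held 1 ETS core and this Erg window 0, and each held 1 GC box (GGGCGG on either strand). The windows at the other two Erg starts held 4 and 2 ETS cores and 0 GC boxes. Over 32851 mouse promoters, 93.4% of windows held the ETS core and 32.7% the GC box, so a match describes the letters only.

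Ets1 was low in the mice with both genes intact and higher in the other 3 genotypes. It was at 19.2, 22.4 and 28.0 CPM in the Ddx41+/+ Trp53+/+ mice (replicates 10, 11 and 12). It was at 32.4 and 43.3 CPM with Ddx41+/- alone, at 36.3, 39.1 and 46.6 CPM with Trp53+/- alone, and at 44.97 and 39.3 CPM with both. Every one of the 7 mice that lacked a Ddx41 or a Trp53 allele was thus above all 3 mice that lacked neither. The share of all genes tested that set these 3 mice apart from the other 7 was not counted.

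Ets2 also had its lowest mean in the mice with both genes intact, but its highest with Ddx41+/- alone. It was at 16.5, 13.3 and 19.1 CPM in the Ddx41+/+ Trp53+/+ mice and at 26.9 and 29.3 CPM in the Ddx41+/- Trp53+/+ mice. It was at 17.7, 28.3 and 24.3 CPM in the Ddx41+/+ Trp53+/- mice, and at 25.9 and 23.5 CPM in the Ddx41+/- Trp53+/- mice. Replicate 22 of the Trp53+/- mice lay inside the range of the Ddx41+/+ Trp53+/+ mice, and the other 6 mice lay above it.

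**Figure D2:**
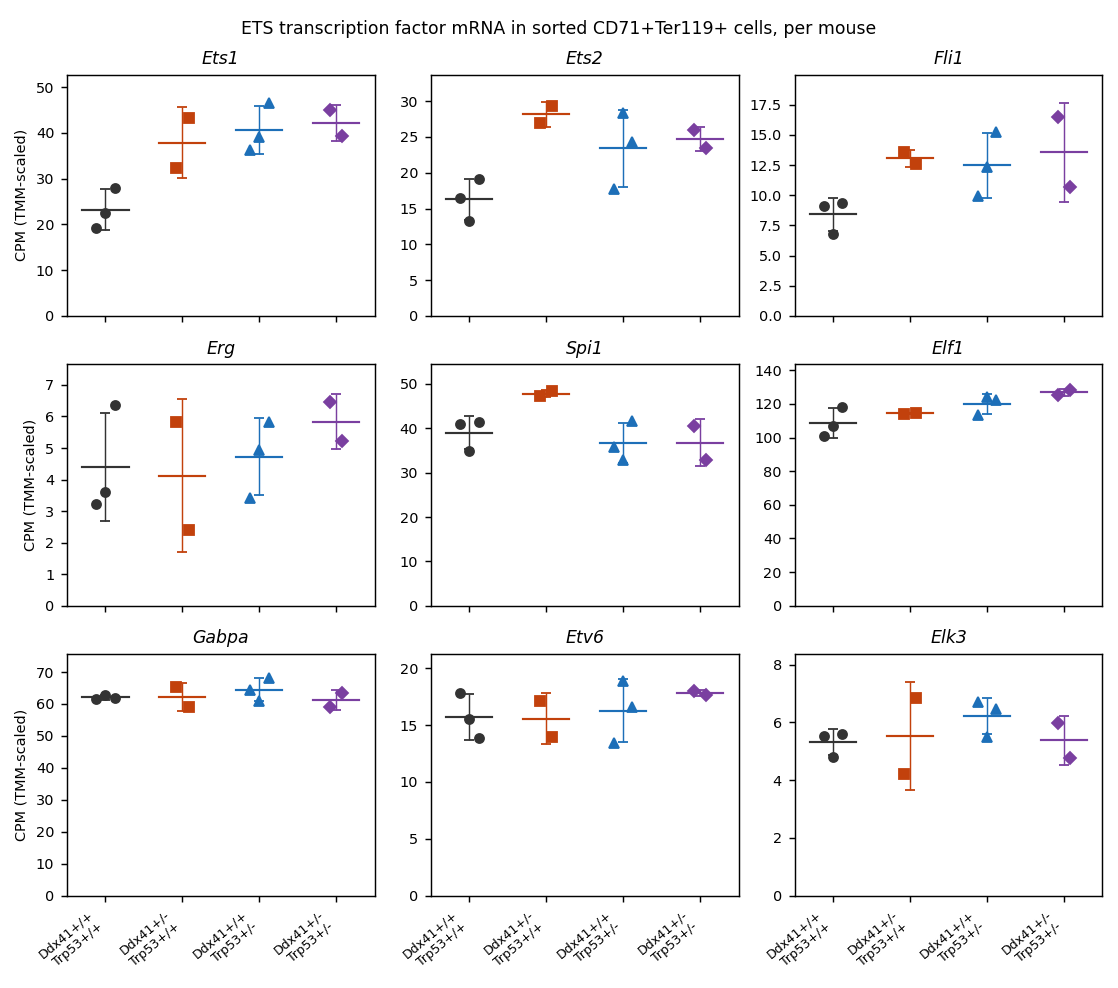
Level of each of the 9 ETS genes in each mouse, as CPM on library sizes scaled by the TMM method, with 1 panel per gene and 1 color per genotype. Points are mice, horizontal lines means and bars the SD (n = 3, 2, 3 and 2). The Ddx41+/+ Trp53+/+ mice are lowest for Ets1, at 19.2 to 28.0 CPM, whereas Gabpa stays between 59.1 and 68.2 CPM in all 10 mice.

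With Trp53+/+, loss of 1 Ddx41 allele went with higher means of Ets1 and Ets2, but neither passed the test over all genes. Ets1 was at 37.9 CPM on average in the Ddx41+/- mice against 23.2 CPM in the Ddx41+/+ mice, a log2 fold change of 0.70 ± 0.166 (SE; 95% interval 0.35 to 1.05), with an adjusted p of 0.0720 by edgeR's quasi-likelihood test. Ets2 was at 28.1 CPM against 16.3 CPM, a log2 fold change of 0.79 ± 0.183 (95% interval 0.40 to 1.18), with an adjusted p of 0.0632 by the same test. A gene was called at an adjusted p under 0.05 and a fold change over 1.5. By that rule 0 of the 9 ETS genes were called, against 0.54% of all genes tested, and 4 had an unadjusted p under 0.05, against 9.64% of all genes. DESeq2 called 2 of the 9, Ets1 and Ets2, with adjusted p of 0.00818 and 0.00723.

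Fli1, a factor of megakaryocyte and stem cell genes, was at 9.07, 6.80 and 9.34 CPM in the Ddx41+/+ Trp53+/+ mice and at 13.6 and 12.6 CPM in the Ddx41+/- Trp53+/+ mice. Its groups did not overlap, with a log2 fold change of 0.65 ± 0.228 and an adjusted p of 0.327 by edgeR. Spi1 was at 40.9, 34.8 and 41.4 CPM against 47.3 and 48.4 CPM in the Ddx41+/- mice, again without overlap, with a log2 fold change of 0.29 ± 0.131 and an adjusted p of 0.490 by edgeR. Groups of Ets1, Ets2, Fli1 and Spi1 were apart, all 4 with the Ddx41+/- mice higher. Groups were apart in 24.9% of all genes, and apart with the Ddx41+/- mice higher in 12.9%. The exact permutation test gave p = 0.1 for each of the 4, the smallest value that 3 against 2 mice allow.

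The other 5 ETS genes had means close to those of the Ddx41+/+ mice. Elf1 was at 101, 107 and 118 CPM against 114 and 115 CPM, and Gabpa at 61.5, 62.9 and 61.8 CPM against 65.3 and 59.1 CPM. Their log2 fold changes were 0.08 ± 0.0861 and 0.01 ± 0.0929, and the 95% intervals, -0.11 to 0.26 for Elf1 and -0.19 to 0.20 for Gabpa, lay within a 1.5-fold change. Etv6, an ETS repressor, was at 17.8, 15.6 and 13.8 CPM against 17.2 and 14.0 CPM, with an interval of -0.38 to 0.36.

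Erg and Elk3 differed most between the Ddx41+/- Trp53+/+ mice themselves. Erg, a factor of stem cells and megakaryocytes, was at 3.22, 3.60 and 6.36 CPM in the Ddx41+/+ mice and at 5.84 and 2.41 CPM in replicates 32 and 34, with a 95% interval of -0.81 to 0.81 for its log2 fold change. Elk3, the ternary complex factor among the members, was at 5.54, 4.81 and 5.60 CPM against 4.20 and 6.86 CPM, with an interval of -0.53 to 0.57. Replicate 34, the library with the fewest counts, was lowest of the 10 mice for Erg and highest for Elk3, so neither gene gave a direction. Over the 9 ETS genes, 7 log2 fold changes were above 0 and the median was 0.08, beside a median of 0.00 over all genes tested.

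Loss of 1 Trp53 allele with Ddx41+/+ was the comparison in which an ETS gene passed the test. Ets1 rose from 23.2 CPM in the Trp53+/+ mice to 40.7 CPM in the Trp53+/- mice, a log2 fold change of 0.82 ± 0.148 (SE; 95% interval 0.50 to 1.13) or 1.76-fold, with an adjusted p of 0.0122 by edgeR's quasi-likelihood test. All 3 Trp53+/- mice (36.3 to 46.6 CPM) were above all 3 Trp53+/+ mice (19.2 to 28.0 CPM). Ets1 was 1 of 9 ETS genes called, against 0.912% of all genes tested, and DESeq2 called the same gene. The call rested on replicate 24, the highest of the Trp53+/- mice: without it, the log2 fold change was 0.71 and the adjusted p 0.0878.

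Ets2 had a log2 fold change of 0.54 ± 0.165 between the same mice (23.4 against 16.3 CPM), with an adjusted p of 0.184 by edgeR. It passed the test when replicate 22 was left out, with a log2 fold change of 0.70 and an adjusted p of 0.0470. Fli1 was at 9.90, 12.3 and 15.3 CPM in these Trp53+/- mice, all above the 6.80 to 9.34 CPM of the Trp53+/+ mice, with a log2 fold change of 0.59 ± 0.203 and an adjusted p of 0.278 by edgeR. Groups of Ets1 and Fli1 were apart, against 14.1% of all genes, and the exact permutation p of 0.1 was the smallest that 3 against 3 mice allow. In all, 3 of the 9 had an unadjusted p under 0.05, against 9.44% of all genes.

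Spi1 did not share this direction. It was at 35.7, 32.8 and 41.7 CPM in the Ddx41+/+ Trp53+/- mice, 1 within, 1 below and 1 just above the 34.8 to 41.4 CPM of the Trp53+/+ mice, with a log2 fold change of -0.09 ± 0.117. Elf1 was at 113, 124 and 123 CPM, with a log2 fold change of 0.15 ± 0.0764 and an adjusted p of 0.587 by edgeR. Gabpa (64.3, 61.1 and 68.2 CPM), Etv6 (13.4, 18.9 and 16.6 CPM), Erg (3.40, 4.94 and 5.82 CPM) and Elk3 (6.70, 5.50 and 6.46 CPM) overlapped their controls, with adjusted p of 0.813 to 0.953 by edgeR. Of the 9 log2 fold changes, 8 were above 0, with a median of 0.15. The Ddx41 and the Trp53 comparison used the same 3 Ddx41+/+ Trp53+/+ mice as controls, so their values stand side by side and are not independent of each other.

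With Trp53+/- in both groups, the Ddx41 genotypes gave nearly the same means of Ets1 and Ets2. Ets1 averaged 42.1 CPM in the Ddx41+/- mice and 40.7 CPM in the Ddx41+/+ mice, a log2 fold change of 0.05 ± 0.161 whose 95% interval ran from -0.29 to 0.39. Ets2 averaged 24.7 against 23.4 CPM, a log2 fold change of 0.07 with an interval of -0.32 to 0.45. By edgeR 0 of 9 were called, against 0.0422% of all genes, 0 had an unadjusted p under 0.05, against 3.75%, and DESeq2 called 0. Fli1 was at 16.4 and 10.7 CPM in the Ddx41+/- mice, 1 above and 1 within the range of the Ddx41+/+ mice. Log2 fold changes were 0.28 for Erg (95% interval -0.47 to 1.03), -0.21 for Elk3 (-0.74 to 0.32) and 0.12 for Etv6 (-0.24 to 0.48). Those of Spi1 and Gabpa were 0.00 (-0.28 to 0.28) and -0.07 (-0.27 to 0.12). Elf1 (125 and 128 CPM against 113 to 124 CPM) was the ETS gene without overlap, against 20% of all genes.

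With Ddx41+/- in both groups, adding the loss of a Trp53 allele also left Ets1 and Ets2 within their error. The log2 fold change of Ets1 was 0.17 (95% interval -0.21 to 0.55), and that of Ets2 was -0.18 ± 0.199. Spi1 had the smallest unadjusted p, with 40.6 and 33.0 CPM in the Ddx41+/- Trp53+/- mice against 47.3 and 48.4 CPM in the Ddx41+/- Trp53+/+ mice, a log2 fold change of -0.38 ± 0.144 and an adjusted p of 0.799 by edgeR. It was the 1 of 9 with an unadjusted p under 0.05, against 5.41% of all genes, and by edgeR 0 of 9 were called, against 0.169%, as by DESeq2. Elf1 and Etv6 were higher and Ets2 and Spi1 lower without overlap. With 2 against 2 mice, groups were apart in 37.3% of all genes, and the exact permutation test cannot go below p = 0.333.

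The difference between the Ddx41 effects with Trp53+/- and with Trp53+/+ was tested as an interaction. It was -0.65 ± 0.232 on the log2 scale for Ets1 and -0.72 ± 0.259 for Ets2, each with an unadjusted p of 0.0128 and an adjusted p of 0.788 by edgeR. These 2 of 9 stand against 5.01% of all genes at an unadjusted p under 0.05, and 0 of 9 were called, against 0.0675%, by edgeR as by DESeq2. The smaller Ddx41 effect with Trp53+/- was therefore not shown to differ from the effect with Trp53+/+. Averaged over both Trp53 genotypes, the Ddx41 effect was 0.37 for Ets1 (adjusted p = 0.460), 0.43 for Ets2 (adjusted p = 0.438) and 0.37 for Fli1 (adjusted p = 0.536) on the log2 scale by edgeR. In this additive model 0 of 9 were called, against 0.11% of all genes, by edgeR as by DESeq2, and 3 had an unadjusted p under 0.05, against 8.98%.

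**Figure D3:**
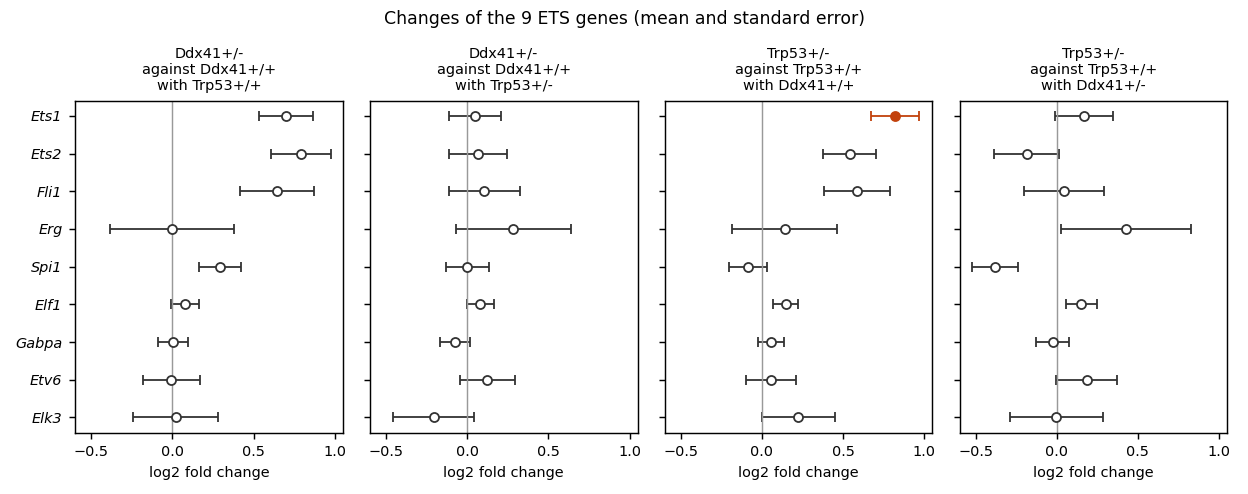
Log2 fold change of the 9 ETS genes in 4 comparisons (x axis), with bars for the standard error, and filled orange points for genes called at an adjusted p under 0.05 and a fold change over 1.5. Ets1 with loss of a Trp53 allele in Ddx41+/+ cells, at 0.82, is the filled point, and Ets1, Ets2 and Fli1 lie to the right of 0 in both comparisons against the Ddx41+/+ Trp53+/+ mice.

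How firmly Ets1 and Ets2 differed between the Ddx41 genotypes with Trp53+/+ depended on the setting of the test. Over 18 settings, the log2 fold change of Ets1 ran from 0.49 to 0.90 and that of Ets2 from 0.67 to 0.92, so the direction held in each. Ets1 was called in 5 settings (adjusted p from 8.90e-05 to 0.662) and Ets2 in 7 (adjusted p from 0.000136 to 0.465). Both were called by DESeq2, by edgeR's likelihood ratio test, with no filter on low counts, without replicates 12 and 23 together, and without replicate 12 alone, where the log2 fold changes were 0.85 and 0.92 and the adjusted p 0.0194 and 0.0340. Ets2 alone was called without replicate 22 or without replicate 23, at an unchanged log2 fold change of 0.79 and adjusted p of 0.0305 and 0.0487. The rise of Ets1 with loss of a Trp53 allele was called in 17 of 18 settings.

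**Figure D4:**
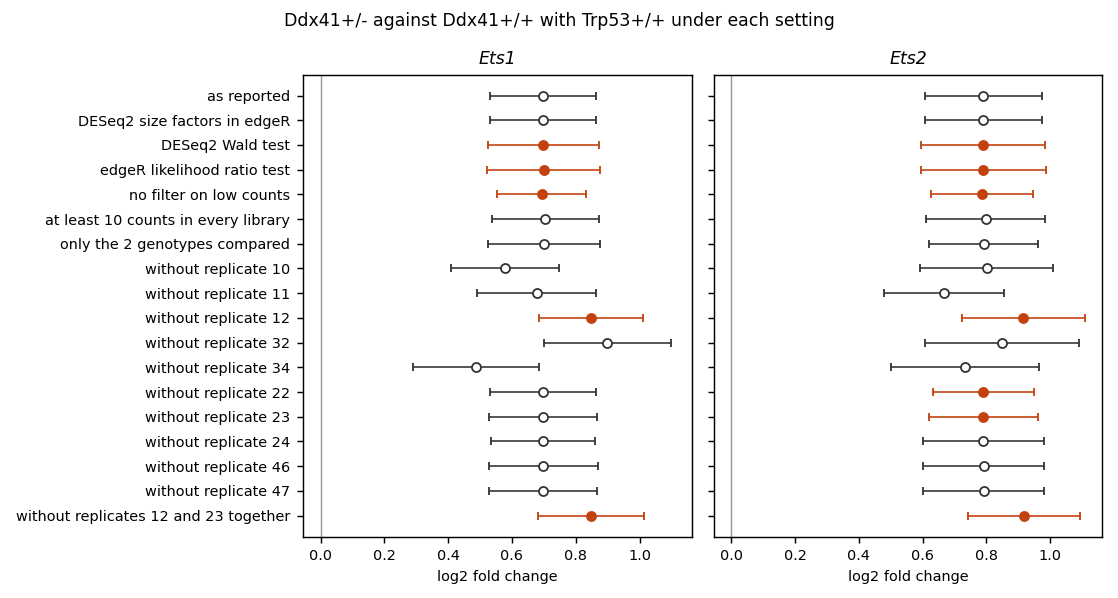
Log2 fold change and standard error of Ets1 and Ets2 between Ddx41+/- and Ddx41+/+ with Trp53+/+ under each of 18 settings, 1 per line. Filled orange points are called. Every point lies above 0, and 5 settings for Ets1 and 7 for Ets2 are filled.

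B cell markers moved with the genotypes in which Ets1 was high. The 9 listed B cell markers in the table (among them Cd79a, Cd79b, Ms4a1, Pax5, Ebf1, Fcrla, Blnk and Cd22) summed to 97.9, 49.4 and 100.0 CPM in the Ddx41+/+ Trp53+/+ mice. They summed to 124 and 201 CPM with Ddx41+/- alone, 173, 167 and 212 CPM with Trp53+/- alone, and 198 and 171 CPM with both. The sum was thus at most 100.0 CPM in the mice with both genes intact and at least 124 CPM in the rest, and none of the 9 markers was at 0 in any library. In bulk RNA, more cells of a type and more RNA per cell cannot be told apart, and Ets1 is itself expressed by B and T cells.

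With Trp53+/+, 2 of the 9 B cell markers rose in the Ddx41+/- mice, Ebf1 by 1.62 ± 0.319 and Cd79a by 1.17 ± 0.237 on the log2 scale (adjusted p = 0.0250 and 0.0312 by edgeR), and all 9 were above 0 with a median of 1.01. DESeq2 called 5 of the 9. Of all genes, edgeR called 0.54% in this comparison. An unadjusted p under 0.05 was seen for 8 of the 9 markers by edgeR, against 9.64% of all genes. Both edgeR calls were lost without replicate 34, where the log2 fold changes were 0.95 and 0.82 and the adjusted p 0.534 and 0.529, and also without replicate 10 or replicate 11 (adjusted p from 0.0624 to 0.0865). In the Trp53 comparison with Ddx41+/+, 6 of 9 rose (2 of 9 without replicate 24) and all 9 were above 0, with a median of 1.24. Of all genes, edgeR called 0.912% there. An unadjusted p under 0.05 was seen for 9 of the 9, against 9.44% of all genes. Ebf1, a factor that sets up the B lineage, rose by 1.89 ± 0.284 on the log2 scale (adjusted p = 0.00319 by edgeR). With Trp53+/- in both groups 4 of 9 were above 0 (median -0.01), and with Ddx41+/- in both groups 8 were (median 0.25). In each of these, 0 of 9 were called by edgeR or DESeq2, and 0 had an unadjusted p under 0.05.

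Spib, an ETS gene of B cells and plasmacytoid dendritic cells, was likewise lowest in the mice with both genes intact, and its mean was highest with Trp53+/- alone. It was at 20.0, 8.26 and 14.9 CPM in the Ddx41+/+ Trp53+/+ mice, 22.3 and 36.7 CPM with Ddx41+/- alone, 39.5, 33.5 and 45.1 CPM with Trp53+/- alone, and 35.4 and 30.3 CPM with both. No mouse that lacked an allele fell within the range of the 3 that lacked none, and the share of all genes ordered like this was not counted. Spib rose by 1.46 ± 0.241 on the log2 scale with loss of a Trp53 allele in Ddx41+/+ cells (adjusted p = 0.00669 by edgeR) and was called in all 18 settings. Its log2 fold change between the Ddx41 genotypes with Trp53+/+ was 1.01 ± 0.270 (adjusted p = 0.123 by edgeR), and it was called in 3 of 18 settings, among them the one without replicate 10. Of the 17 other ETS genes in the table, 9 passed the filter on low counts, and Spib was the 1 called. The most abundant of the rest, Elf2, Elk4, Elf4 and Erf, had log2 fold changes of -0.03, 0.19, 0.09 and 0.24 with loss of a Trp53 allele in Ddx41+/+ cells.

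Over the 10 libraries, the genes whose log2 CPM followed Ets1 most closely were H2-DMb2 (Pearson r = 0.97), Mreg (0.96), Smad7 (0.96), Ebf1 (0.96) and Sptbn1 (0.95). These r describe 10 libraries of 4 genotypes and carry no test. The 9 B cell markers ranked 4 to 420 of 11845 genes by their r with Ets1, with a median rank of 63. For Ets2 the closest were Nedd9 (0.93), Stambpl1 (0.93), Rasl11b (0.93), Tmsb10 (0.92) and Csrnp1 (0.92), and the B cell markers ranked 122 to 866, with a median rank of 226. Among the members, r was 0.86 between Ets2 and Fli1, 0.80 between Ets1 and Fli1, 0.79 between Ets1 and Ets2, 0.08 between Ets1 and Spi1 and 0.05 between Ets1 and Gabpa.

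**Figure D5:**
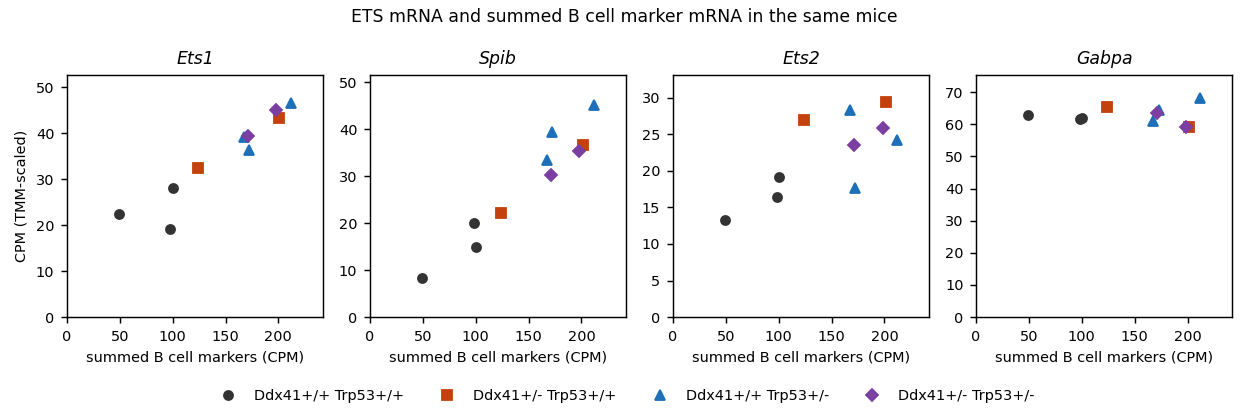
CPM of Ets1, Spib, Ets2 and Gabpa (y axis) against the summed CPM of 9 B cell markers (x axis), with 1 point per mouse and 1 color per genotype. The 3 Ddx41+/+ Trp53+/+ mice lie at the lower left for Ets1, Spib and Ets2, with marker sums of 49.4 to 100.0 CPM, whereas Gabpa is level across the range.

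Other cell types were set beside the ETS genes in the same way. T and NK cell markers summed to 20.2 to 26.0 CPM in the Ddx41+/+ Trp53+/+ mice and to 26.6 to 35.7 CPM in the other 7, and 10 of 10 were above 0 in the Trp53 comparison with Ddx41+/+ (median 0.77). Of these, Gzma was at 0 in replicate 11. By edgeR 0 of 10 were called there, with 4 at an unadjusted p under 0.05, against 9.44% of all genes, and 0 called by DESeq2. Between the Ddx41 genotypes with Trp53+/+, 7 of 10 were above 0 (median 0.67), with 0 called by edgeR or DESeq2. Of the 10, 3 had an unadjusted p under 0.05, against 9.64% of all genes. Macrophage markers had 0 of 10 above 0 in the Trp53 comparison with Ddx41+/+, with a median of -0.62. By edgeR 0 were called, with 8 at an unadjusted p under 0.05, against 9.44% of all genes, and 1 called by DESeq2. Without replicate 11 edgeR called 6, against 0.914% of all genes. Between the Ddx41 genotypes with Trp53+/- they went the other way, with 10 of 10 above 0 (median 0.52). Their sums were 366 to 465 CPM in the Ddx41+/- mice against 233 to 319 CPM in the Ddx41+/+ mice. Here 0 were called by edgeR or DESeq2, and 6 had an unadjusted p under 0.05, against 3.75% of all genes.

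Megakaryocyte and platelet markers, which share Fli1 and Erg as regulators, summed to 90.4 to 112 CPM in all mice. Stem and progenitor markers summed to 20.6 to 28.9 CPM in the Ddx41+/+ Trp53+/+ mice and to 27.3 to 36.8 CPM with Trp53+/- alone, where 8 of 9 tested were above 0 (median 0.49). Endothelial markers summed to 7.0 to 12.1 CPM in the Ddx41+/+ Trp53+/+ mice and to 11.7 to 15.4 CPM with Ddx41+/- alone, where 5 of 5 tested were above 0 (median 0.50). In the 4 comparisons between genotypes, 0 of the neutrophil, megakaryocyte, stem cell, endothelial and erythroid markers were called by edgeR or DESeq2, and 0 had an unadjusted p under 0.05. The part of B, T, myeloid and other cells in the Ets1, Ets2, Fli1, Spi1 and Spib values was not tested.

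Targets of the ternary complex factors, which lie downstream of ERK and SRF, had higher means in the Ddx41+/- mice with Trp53+/+, and 1 of them passed the test. Of 12 tested, 1 rose by edgeR and 1 by DESeq2, 7 had an unadjusted p under 0.05, against 9.64% of all genes, and 11 were above 0, with a median log2 fold change of 0.50. Fosb, an immediate early AP-1 gene, was at 85.7, 76.9 and 112 CPM in the Ddx41+/+ mice and at 196 and 172 CPM in the Ddx41+/- mice. It rose by 1.01 ± 0.165 on the log2 scale (adjusted p = 0.00673 by edgeR). This call was lost without replicate 32 (0.91, adjusted p = 0.124) or without replicate 34 (1.11, adjusted p = 0.0676).

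Junb, chosen after its values were seen, was at 134, 129 and 127 CPM against 181 and 210 CPM, and its adjusted p of 0.0153 by edgeR came with a fold change just under the limit of 1.5 (log2 0.58). Among the most abundant targets, Dusp1 had a log2 fold change of 0.39 (adjusted p = 0.0621), Btg2 of 0.15, Mcl1 of 0.09 and Fos of 0.42, where the SE of Fos was 0.307. In the Trp53 comparison with Ddx41+/+, 1 of 12 rose by edgeR and 1 by DESeq2, 7 had an unadjusted p under 0.05, against 9.44% of all genes, and all 12 were above 0 (median 0.26). The edgeR call was Egr3, at 0.738, 0.632 and 0.968 CPM against 1.70, 2.97 and 2.68 CPM, with a log2 fold change of 1.68 ± 0.373 and an adjusted p of 0.0395 by edgeR. Egr3 was low, at 13 to 14 counts per library in the Trp53+/+ mice and 17 to 48 in the Trp53+/- mice. The Egr3 call did not hold without replicate 10, 11, 23, 24, 32, 34, 46 or 47, with adjusted p of 0.0552 to 0.196. With Trp53+/- 9 of 12 were above 0 between the Ddx41 genotypes (median 0.07), and with Ddx41+/- 7 of 12 between the Trp53 genotypes (median 0.01). In these 0 were called by edgeR or DESeq2, with 2 and 1 at an unadjusted p under 0.05. In the additive model Fosb rose by 0.83 (adjusted p = 0.0164 by edgeR) and 12 of 12 were above 0, and without replicate 10, 32 or 34 its adjusted p was 0.0501 to 0.107.

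Genes of the ERK pathway that feeds Ets1, Ets2 and Elk3 held kinase genes near 0 and feedback genes that went both ways. Between the Ddx41 genotypes with Trp53+/+, 0 of 15 genes of ERK input and feedback were called by edgeR and 1 by DESeq2, 4 had an unadjusted p under 0.05, against 9.64% of all genes, and 8 were above 0 (median 0.00). Between the Trp53 genotypes with Ddx41+/+ the counts were the same, with 0 called by edgeR, 1 by DESeq2, 4 at an unadjusted p under 0.05, against 9.44% of all genes, and 8 above 0. Mapk3, which encodes ERK1, had a log2 fold change of -0.16 ± 0.085 between the Ddx41 genotypes with Trp53+/+, and the kinase gene Map2k2 had 0.10 ± 0.0785.

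The 4 genes at an unadjusted p under 0.05 between the Ddx41 genotypes with Trp53+/+ were Dusp4, Dusp5, Dusp6 and Spry2, feedback genes that were chosen here after their values were seen. Dusp6, an ERK phosphatase gene that ERK signaling induces, was at 17.5, 10.8 and 19.4 CPM in the Ddx41+/+ mice against 24.9 and 33.7 CPM in the Ddx41+/- mice, with a log2 fold change of 0.88 ± 0.207 and an adjusted p of 0.0710 by edgeR. Dusp5, a phosphatase gene of the same family, was at 5.22, 3.69 and 5.33 CPM against 6.75 and 11.3 CPM, with a log2 fold change of 0.90 ± 0.261 and an adjusted p of 0.180 by edgeR. Groups of both genes were apart, against 24.9% of all genes. Dusp4 (0.640 against 1.63 CPM on average) and Spry2 (1.13 against 2.18 CPM) were low, at 7 to 34 counts per library in these 5 mice, with adjusted p of 0.517 and 0.515 by edgeR. Another feedback gene, Spred1, also had a higher mean in the Ddx41+/- mice (7.41 against 8.57 CPM). Lower means there were those of Spry1 (1.25 against 0.870 CPM), Phlda1 (4.42 against 3.78 CPM) and Spred2 (6.18 against 6.07 CPM). In the Trp53 comparison with Ddx41+/+, the log2 fold changes were 0.89 for Dusp4, 0.70 for Dusp5, 0.68 for Dusp6 and 0.88 for Spry2, with adjusted p of 0.121 to 0.648 by edgeR.

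Partners of the ETS factors in erythroid cells had median log2 fold changes near 0. Of 14 tested, 0 were called in any comparison by edgeR or DESeq2, and at most 2 in a comparison had an unadjusted p under 0.05. Between the Ddx41 genotypes with Trp53+/+, 10 were above 0 (median 0.07). Here Cbfb averaged 9.71 CPM in the Ddx41+/+ mice and 13.6 CPM in the Ddx41+/- mice, and Lyl1 235 and 288 CPM. Gata2 went the other way, at 3.58 and 2.57 CPM. Gata1, the erythroid factor that PU.1 opposes, was at 391 to 455 CPM in all 10 mice, with a log2 fold change of -0.05 ± 0.0738. Tal1 (1234 to 1367 CPM in all mice) had a log2 fold change of -0.08 ± 0.0634, Klf1 of 0.04 and Lmo2 of 0.06.

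PU.1 targets were counted beside Spi1, and GABP targets beside Gabpa, in each comparison. By edgeR 0 of 12 PU.1 targets were called in any of these, and DESeq2 called 1, in the Trp53 comparison with Ddx41+/+. At most 2 had an unadjusted p under 0.05 in a comparison between genotypes, and 3 in the additive model. Between the Ddx41 genotypes 10 of 12 were above 0 with Trp53+/+ (median 0.16) and 11 of 12 with Trp53+/- (median 0.21). The macrophage markers, which share Csf1r with this list, were 10 of 10 above 0 in the latter (median 0.52). Between the Trp53 genotypes 1 of 12 PU.1 targets was above 0 with Ddx41+/+ (median -0.14) and 3 of 12 with Ddx41+/- (median -0.06). In these 2 comparisons, macrophage markers had 0 of 10 (median -0.62) and 5 of 10 (median 0.00) above 0. Neutrophil markers had 8 of 10 (median 0.08) and 0 of 10 (median -0.12). The part of macrophages and neutrophils in the PU.1 target values was not tested in any comparison.

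The most abundant PU.1 targets, Lyz2, Cybb and Itgam, had log2 fold changes of 0.08, 0.00 and 0.17 between the Ddx41 genotypes with Trp53+/+ and of -0.18, -0.15 and -0.10 between the Trp53 genotypes with Ddx41+/+. Csf1r, the macrophage growth factor receptor gene and also 1 of the macrophage markers above, had -0.72 ± 0.173 in the latter (adjusted p = 0.0638 by edgeR). GABP targets, among them the respiratory chain genes Atp5b, Cox4i1 and Cox5b, had 0 of 8 called by edgeR or DESeq2 and 0 with an unadjusted p under 0.05 in any comparison, with medians from -0.13 to 0.03 in the 4 comparisons between genotypes.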

How the data were processed

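RNA-seq of sorted CD71+Ter119+ cells was analysed for 10 mice. The values deposited by the authors were raw counts of reads for each gene symbol, and the name of the table says that 2 mice were removed from it; these were not used here. The submitters' processing notes name FastQC 0.11.7, HISAT2 2.0.5, featureCounts 1.5.2 and mm10; the annotation and the strand setting are not given in the sources used here. The paper names a TruSeq v2 kit and the labels a stranded one.

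Counts were fitted in R 4.3.3 with edgeR 4.0.16 (TMM scaling, filter on low counts by genotype, quasi-likelihood test, 1 mean per genotype, all 10 libraries), which was checked on simulated data. All p-values were two-sided and adjusted by Benjamini-Hochberg over 11846 genes (12575 removed). The additive model had Trp53 genotype as a term. CPM used scaled library sizes, and log2 CPM a prior count of 2. Single genes were also compared by an exact permutation test of CPM. RPKM used the union of GENCODE M21 exons. Labels give no batch. Libraries of 1 genotype differed beyond sampling noise (chi-square per degree of freedom 6.24 to 16.0). Precision was set by 2 or 3 mice per genotype. Floors of 3 counts cover counting error only, since PCR reads are not independent molecules.

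Alternatives were DESeq2 1.42.0, its size factors in edgeR, edgeR's likelihood ratio test, a fit of only the 2 genotypes compared, no filter, a minimum of 10 counts per library, no limit on the fold change, each mouse left out, and replicates 12 and 23 left out together. Named were all 9 members, and of each list the called genes and up to 4 of the highest mean CPM. For Ets1 and Ets2, the 5 genes of highest correlation were named too. Members and lists were chosen with earlier results of these data known. Values of some listed genes are not reported here.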

Additional observations from a re-analysis of the deposited data

How the results depend on the processing

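The number of ETS genes called between the Ddx41 genotypes with Trp53+/+, 0 by edgeR's quasi-likelihood test, became 2 (Ets1 and Ets2) with DESeq2, with edgeR's likelihood ratio test, with no filter on low counts and without replicates 12 and 23 together, and ranged from 0 to 2 when each mouse was left out. Between the Trp53 genotypes with Ddx41+/+ it ranged from 0 (without replicate 24) to 2 (without replicate 22) around the reported 1. In the other comparisons it was 0 under every setting tried. Where leaving out a mouse left a genotype with 1 library, that library was assumed to vary like the others. Of the single log2 fold changes, those of Erg and Elk3 between the Ddx41 genotypes with Trp53+/+ became 0.43 and -0.34 without replicate 34, and ranged from -0.85 to 0.43 and from -0.34 to 0.36 over the mice left out. With Ddx41+/-, the log2 fold changes between the Trp53 genotypes became -0.00092 for Erg and 0.36 for Elk3 without replicate 34, and -0.30 for Fli1 without replicate 46 (ranges -0.00092 to 1.28, -0.34 to 0.36 and -0.30 to 0.33). The number of all genes called with Trp53+/+ between the Ddx41 genotypes was 64, and ran from 13 without replicate 34 and 26 without replicate 32 to 103 without replicate 12, 131 with DESeq2, 182 with the likelihood ratio test and 243 with no filter. Between the Trp53 genotypes with Ddx41+/+ it was 108, and ran from 35 without replicate 24 to 219 with the likelihood ratio test and 250 with no filter. With Trp53+/- it was 5 between the Ddx41 genotypes (1 without replicate 46, 39 with no filter), and with Ddx41+/- it was 20 between the Trp53 genotypes (13 without replicate 34, 67 with no filter). The cause of these changes was not tested. Settings were applied to genes other than the 9 ETS genes after their values were seen. No paired analysis was possible because the genotypes share no replicate numbers. The depth of replicate 34 limits Erg most, at 19 counts, and no genotype had more than 3 mice.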
